A study of Mus musculus with 5 samples.

Results

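Voltage-gated calcium and sodium channel genes were examined on 5 expression arrays of mouse tissue, 4 of medulloblastoma, a tumour of the cerebellum, and 1 of cerebellum labelled P5, taken here as an age of 5 days after birth. The genes were chosen by symbol, without use of their values: the pore subunits of calcium channels (Cacna1), their α2δ (Cacna2d), β (Cacnb) and γ (Cacng) subunits, and the pore and β subunits of sodium channels (Scn). Of 18193 genes with a named probe set, 35 were members, 24 of calcium and 11 of sodium channels, measured by 85 probe sets. For each gene the brightest probe set, by its mean over the 5 arrays, was used. A mean signal of at least 100 was reached by 31 of the 35, and these were tested among 14109 genes; Cacna1s, Cacng6, Scn9a and Scn10a lay below it.

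The labels give no genotype, treatment, sex or tumour age for any array, although the series title concerns tumours of Cxcr6 mutant mice and a Smoothened inhibitor. Neither was compared. Nothing says how many animals the 4 tumours came from, so p-values measure only the spread between these samples. Medulloblastomas 1 and 2 have titles that begin with ken, and the other 3 arrays have titles that begin with hmk, prefixes whose meaning is not given. The cerebellum has 1 array and no replicate, so every difference below rests on that array, and age cannot be told apart from tissue. The signal at the 3' end of control transcripts over that at the 5' end, which rises as RNA degrades, had its highest values in medulloblastoma 1, with 1.45 for actin, where the others had 1.21 to 1.35, and 0.946 for Gapdh, where they had 0.731 to 0.824. Markers of granule neuron precursors, the cells from which such tumours can arise, were above the cerebellum in every tumour for 7 of 8 genes, with a median log2 difference of 0.99. Markers of astrocytes and Bergmann glia had a median of -1.79, with 5 of 8 below the cerebellum in every tumour and 2 of 8 above. Those of microglia and macrophages had a median of 1.45, with 8 of 8 above. Over all genes tested, 25.1% were above the cerebellum in every tumour and 30.8% below.

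Voltage-gated calcium channels open when the membrane is depolarised and let calcium in, and voltage-gated sodium channels carry the rising phase of the action potential. In both, a large pore subunit senses voltage and selects the ion, and smaller auxiliary subunits set how many channels reach the membrane and how they gate. In the cerebellum, Cacna1a encodes the P/Q-type pore that dominates in Purkinje cells and at granule neuron synapses, and mutations of several members (Cacna1a, Cacna2d2, Cacnb4, Cacng2 and Scn8a) cause ataxia in mice.

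Cacna2d1 and Cacna2d2, both α2δ subunits, differed from the cerebellum in opposite directions, so their promoters are shown with that of Cacna1e, the only tested pore gene at least 2-fold lower in every tumour. The sequences come from RefSeq (GRCm38.p6), for which the table used here held entries for 27 of the 35 genes, and cover the 250 bases before the start, read 5′ to 3′ on the gene's strand. Cacna2d1 lies at chr5:15934441-15934690 on the plus strand, Cacna2d2 at chr9:107399630-107399879 on the plus strand, and Cacna1e at chr1:154725921-154726170 on the minus strand. Capitals mark each match, on either strand, to the GC box (GGGCGG), the GLI core (GACCACC), an E-box of the kind that Atoh1 binds (CAGCTG), the left and right parts of the RE1 element of the repressor REST (CAGCACC and GGACAG), the TATA box (TATAAA) or the cyclic AMP element (TGACGTCA); no motif contains another, and neighbouring matches can overlap.
Cacna2d1: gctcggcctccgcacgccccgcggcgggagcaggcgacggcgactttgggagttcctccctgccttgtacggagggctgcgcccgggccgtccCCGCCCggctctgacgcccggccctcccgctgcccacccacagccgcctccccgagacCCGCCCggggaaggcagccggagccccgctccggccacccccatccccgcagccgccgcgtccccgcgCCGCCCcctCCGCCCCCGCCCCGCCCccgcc
Cacna2d2: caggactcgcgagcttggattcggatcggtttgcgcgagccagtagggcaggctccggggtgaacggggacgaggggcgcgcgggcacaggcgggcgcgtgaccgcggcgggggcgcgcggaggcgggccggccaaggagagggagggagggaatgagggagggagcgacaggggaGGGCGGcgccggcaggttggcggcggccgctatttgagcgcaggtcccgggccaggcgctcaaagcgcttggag
Cacna1e: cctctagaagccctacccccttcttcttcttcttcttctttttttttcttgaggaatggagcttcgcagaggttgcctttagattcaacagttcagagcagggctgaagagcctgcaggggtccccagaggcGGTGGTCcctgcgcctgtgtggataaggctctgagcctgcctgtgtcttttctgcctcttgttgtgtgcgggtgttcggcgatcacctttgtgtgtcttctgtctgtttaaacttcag
Cacna2d1 had 6 GC boxes and 82.4% G and C, Cacna2d2 had 1 and 74.4%, and Cacna1e had 0 and 52%, with 1 GLI core. A GC box was found in 32.7% of all 32851 windows of this length and a GLI core in 2.34%; these are matches of letters, not sites. Of the 37 windows of members, 14 held a GC box, 11 the E-box (13% of all windows) and 4 the right part of RE1 (18.7%). The left part of RE1 (5.73% of all windows) and the cyclic AMP element (1.55%) were found in 0.

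The channel genes had no single direction, though more lay below the cerebellum than above it. In every tumour, 11 of 31 were below it (35.5%, against 30.8% of all genes) and 4 above it (12.9%, against 25.1%). Differences are on the log2(signal + 32) scale, on which changes of dim genes come out too small, and the 2-fold counts use the same scale. Their median difference from the cerebellum was -0.52 over 31 genes, against -0.07 over all 14109 genes tested. At a Benjamini-Hochberg adjusted p under 0.05 in limma, 1 member was higher in the tumours (Cacna2d1) and 1 lower (Cacng4), where 0.312% of all genes were called higher and 0.177% lower. Without a test, 1 member lay at least 2-fold above the cerebellum in every tumour and 4 at least 2-fold below it, Cacna2d2, Cacng4, Cacna1e and Scn3b. Over all genes these shares are 2.01% and 2.63%, and 4 of 31 is 12.9%. At an unadjusted p under 0.05, 2 members were higher and 5 lower (7.72% and 7.44% of all genes). With 4 arrays against 1, the smallest p of an exact permutation test is 0.2, so the calls come from the limma fit. Its spread is that of the tumours, which the single cerebellum array is taken to share.

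**Figure D1:**
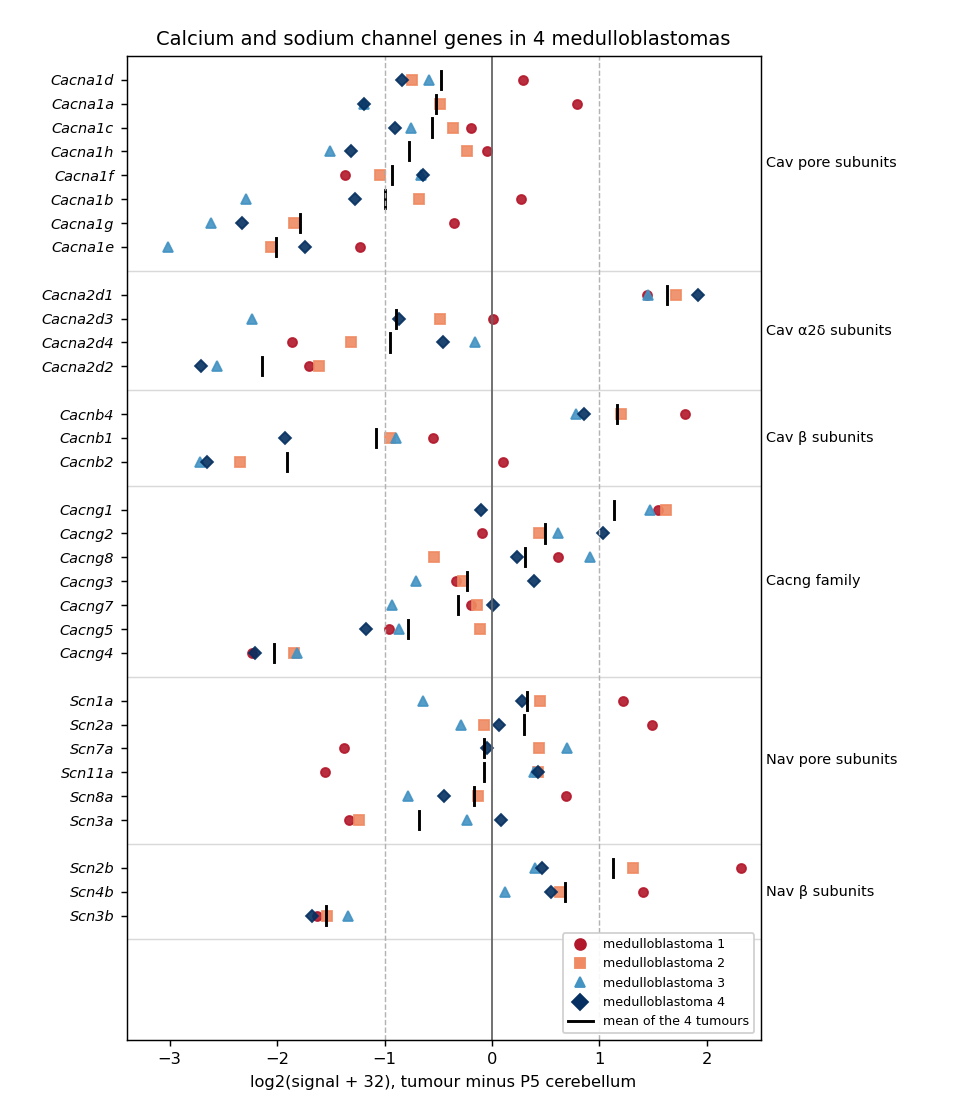
Difference of each tumour from the P5 cerebellum on the log2(signal + 32) scale for the 31 channel genes tested, by subunit class; bars are the mean of the 4 tumours and dashed lines mark 2-fold. The 4 tumours lie close together for Cacna2d1, Cacng4 and Scn3b, and medulloblastoma 1 lies far to the right of the others for Cacna1g, Scn2a and Scn2b.

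Among the α2δ subunits, extracellular proteins that bring calcium channels to the membrane, Cacna2d1 rose and Cacna2d2 had lower signals. Cacna2d1, the target of the drug gabapentin, read 3759, 4536, 3773 and 5229 in medulloblastomas 1 to 4 and 1362 in the cerebellum. All 4 tumours were 2.76 to 3.84 times the cerebellum, and the difference was 1.63 ± 0.25 (SE; limma, adjusted p = 0.0468). Its 4 dimmer probe sets were higher too, by 0.57 to 1.28. Cacna2d2, the α2δ subunit of Purkinje cells that is mutated in ducky mice, read 568, 608, 300.1 and 267 against 1922. The cerebellum was 3.16 to 7.20 times the tumours; the difference of -2.14 ± 0.47 did not pass (adjusted p = 0.109), and the only other probe set above the minimum signal differed by -0.79. Cacna2d3 read 701, 490, 123 and 368 against 696, so medulloblastoma 1 was level with the cerebellum and medulloblastoma 3 well below it (-0.89 ± 0.72). Cacna2d4, known from the retina, was low, at 56.4 to 256 in the tumours and 290 in the cerebellum (-0.95 ± 0.70).

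The calls of Cacna2d1 and Cacng4 were lost without medulloblastoma 2, 3 or 4 and kept without medulloblastoma 1. Few genes of any kind were called in the fits that lost them. Over all 14109 genes, 2 were called higher and 0 lower without medulloblastoma 2, 10 and 6 without 3, and 0 and 0 without 4. The adjusted p of Cacna2d1 was 0.170 without medulloblastoma 2, 0.0943 without 3 and 0.114 without 4, although the difference stayed between 1.53 and 1.69 with each tumour left out in turn. For Cacng4 the adjusted p was 0.115, 0.0629 and 0.0931, with differences between -2.09 and -1.96. Without medulloblastoma 1, both remained called (adjusted p = 0.00579 and 0.00473), and Cacna2d2 (-2.29, adjusted p = 0.0215), Cacna1e (-2.27, 0.0322), Cacna1g (-2.26, 0.0141) and Scn3b (-1.52, 0.0179) were called lower as well. In that fit the calls over all 14109 genes also grew, from 44 higher and 25 lower to 448 and 383.

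The γ family joins a skeletal muscle calcium channel subunit to the TARPs, proteins that carry AMPA receptors to synapses. Cacng4, a TARP that is common in the developing brain, fell: it read 929, 1233, 1251 and 949 in the tumours against 4496, a difference of -2.03 ± 0.27 (limma, adjusted p = 0.0302). The cerebellum was 3.59 to 4.84 times the tumours, and a second probe set differed by -1.54. Cacng2, stargazin, the TARP of cerebellar granule neurons, read 1216, 1774, 2006 and 2699 against 1302, so medulloblastoma 1 lay below the cerebellum and the others above (0.50 ± 0.39, adjusted p = 0.561). A second probe set of Cacng2, nearly as bright, read 1452, 1751, 2502 and 2600 against 624, a difference of 1.64 with no overlap, and another, dim one had the opposite sign (-1.02). Scaling the arrays to equal medians made that second probe set the brightest, with a difference of 1.83, so the size for Cacng2 depends on the probe set. The remaining TARP genes Cacng3 (-0.23 ± 0.55), Cacng5 (-0.78 ± 0.40), Cacng7 (-0.31 ± 0.38) and Cacng8 (0.30 ± 0.59) were not called. Cacng1, the muscle subunit, read 153, 162 and 144 in medulloblastomas 1 to 3, 27.1 in medulloblastoma 4 and 31.3 in the cerebellum (1.13 ± 0.85). Its relative Cacng6, below the minimum mean signal, read 33.5, 139, 144 and 152 against 16.4. A second, dimmer probe set of Cacng6 did not repeat this (-0.11). Of 10 markers of striated muscle, 4 passed the minimum signal and limma called none, with 1 higher and 0 lower at an unadjusted p under 0.05. That gene, Myod1, a muscle regulator, read 427, 1075, 1093 and 548 against 260 (1.38 ± 0.52), above the cerebellum in every tumour. The other markers tested did not share this size, with Des at -0.68 ± 0.45, Actc1 at -0.83 ± 0.93 and Ckm at 0.30 ± 0.39. The median of the muscle list was -0.19. The part of Myod1 in the values of Cacng1 and Cacng6 was not tested.

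**Figure D2:**
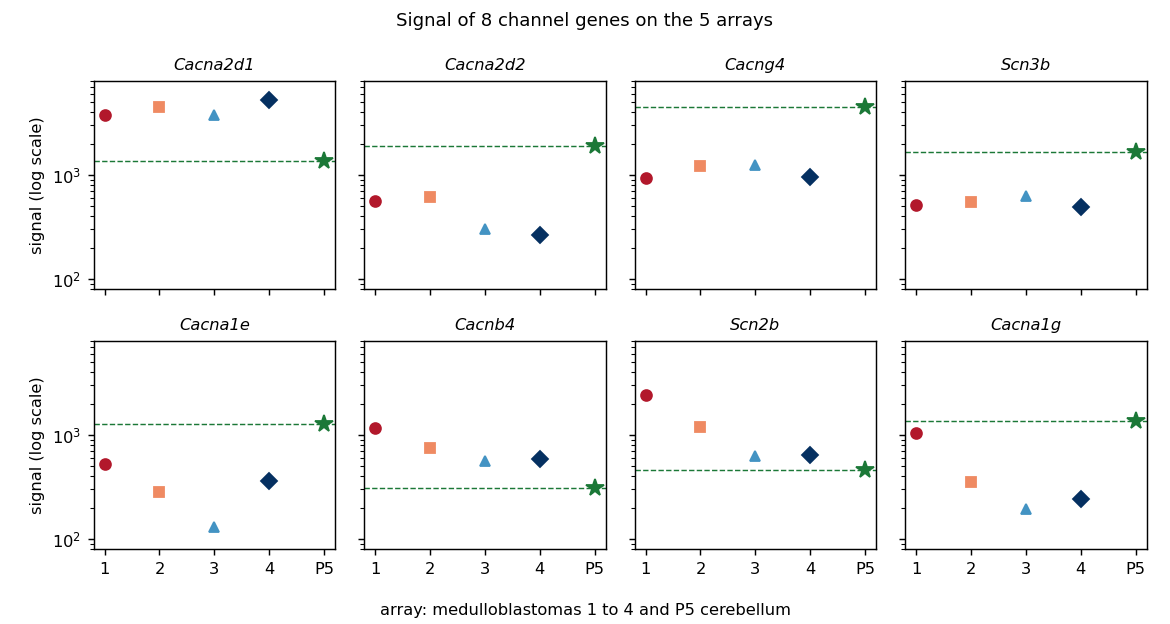
Signal (log axis) of 8 channel genes on the arrays of medulloblastomas 1 to 4 and the P5 cerebellum (star and dashed line), 1 point per array. Cacna2d1 lies above the cerebellum in every tumour and Cacna2d2, Cacng4, Scn3b and Cacna1e below it; for Cacnb4, Scn2b and Cacna1g medulloblastoma 1 is the highest tumour.

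The pore subunits of calcium channels all had a negative mean difference, and none was called. Their median was -0.85 over 8 genes, 5 of which were below the cerebellum in every tumour (30.8% of all genes were), and 2 had an unadjusted p under 0.05 on the lower side and 0 on the higher. Cacna1e, the R-type pore, read 531, 286, 131 and 362 against 1287 (-2.01 ± 0.59, limma adjusted p = 0.200). Its tumours spread 4.06-fold but did not reach the cerebellum. A dim second probe set had the opposite sign (0.48, mean signal 60.3), and the mean of both gave -0.77. Cacna1g, the T-type pore of Purkinje cells and deep nuclei, read 1055, 355, 195 and 245 against 1356 (-1.78 ± 0.74, adjusted p = 0.314). Medulloblastoma 1 was close to the cerebellum and the other 3 were far below it. Cacna1h, another T-type pore, differed by -0.77 ± 0.74 with a mean signal of 129.

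Cacna1a and Cacna1b, the P/Q- and N-type pores that trigger transmitter release, crossed the cerebellum on their brightest probe sets. Cacna1a read 1136, 448, 263 and 263 against 641 (-0.52 ± 0.70), above it in medulloblastoma 1 alone. A second probe set read 593, 243, 271 and 436 against 477 (-0.36), but another read 475, 105, 151 and 362 against 741 (-1.54), below the cerebellum in every tumour. Cacna1b read 2081, 1064, 327 and 694 against 1721 (-0.99 ± 0.77), with the same single tumour above. Its 3 other probe sets differed by -0.74 to -0.58. In them medulloblastoma 1 read 771 against 905, 929 against 795 and 524 against 594, so its place depends on the probe set. Of the L-type pores, Cacna1c was below the cerebellum in every tumour (-0.55 ± 0.37), and Cacna1d was above it in medulloblastoma 1 alone (-0.47 ± 0.44). A second probe set of Cacna1d read 231, 437, 223 and 246 against 578 (-0.99), below it in every tumour. The retinal L-type pore Cacna1f read 121 to 221 against 363 (-0.93 ± 0.46). The skeletal muscle pore Cacna1s, under the minimum mean signal, read 91.1, 57.9, 29.5 and 29.0 against 201.

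The cytoplasmic β subunits, which bind the pore and speed its traffic to the membrane, diverged. Cacnb4, mutated in lethargic mice, read 1161, 757, 559 and 589 against 311 (1.16 ± 0.41, limma adjusted p = 0.260), above the cerebellum in every tumour. Its other probe sets had the same sign at other sizes. A second one read 953, 555, 458 and 383 against 464, with medulloblastomas 3 and 4 just below the cerebellum (0.24), and a dim one read 435, 267, 150 and 55.1 against 26.0 (1.90). Cacnb1 read 422, 313, 326 and 143 against 634 (-1.08 ± 0.51). Cacnb2 read 266 in medulloblastoma 1, 22.8, 10.2 and 12.1 in the others and 246 in the cerebellum (-1.90 ± 1.18); 3 of these signals are smaller than the 32 added to every signal, which compresses the difference.

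Sodium channel pores showed no common direction. Their median was -0.07 over 6 genes, equal to that of all genes, and limma called none, with 0 at an unadjusted p under 0.05 in either direction. Scn2a, the pore of immature axons, read 2553, 844, 724 and 931 against 891 (0.30 ± 0.60), and Scn1a, the pore of inhibitory neurons, read 787, 446, 193 and 393 against 319 (0.32 ± 0.60). For both genes medulloblastoma 1 was highest and medulloblastoma 3 lowest, and the cerebellum lay within the range of the tumours. The dimmer probe sets of Scn2a were higher by 0.44 to 1.32, and a second one of Scn1a by 1.08. Scn8a, the pore of mature axon initial segments, read 2869, 1612, 1018 and 1294 against 1771 (-0.17 ± 0.48). A dimmer probe set read 805, 777, 796 and 648 against 1132 (-0.57), below the cerebellum in every tumour. Another read 604, 535, 475 and 399 against 392 (0.32), above it in every tumour, so the direction of Scn8a depends on the probe set. The remaining probe sets differed by -0.14 and, for a dim one, -1.59. The sign of Scn8a also turned under equal medians (0.024), as did those of Scn7a and Scn11a under both other scalings. Scn3a, the pore of embryonic neurons, ran the other way, at 149, 162, 355 and 451 against 424 (-0.68 ± 0.59): both ken tumours were low and both hmk tumours near the cerebellum.

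Pore genes of other tissues were dim. Scn11a of pain-sensing neurons read 12.6, 144, 139 and 144 against 98.5, and Scn7a, a sodium sensor of glia, read 23.5 to 201 against 112. Scn10a (7.28 to 143 against 81.1) and Scn9a (63.8 to 79.3 against 118), both of sensory neurons, were below the minimum mean signal.

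The β subunits of sodium channels, adhesion-like proteins that tune gating, split by gene. Scn3b, abundant in immature neurons, read 512, 550, 631 and 495 against 1651. The tumours agreed within 1.27-fold and the cerebellum was 2.62 to 3.33 times as high, a difference of -1.55 ± 0.28 that missed the threshold (limma adjusted p = 0.0682); a second probe set differed by -1.83. Scn2b, which is linked to the pore by a disulfide bond and rises as neurons mature, read 2441, 1200, 623 and 650 against 463 (1.13 ± 0.66, limma adjusted p = 0.446), above the cerebellum in every tumour. A second probe set read 1450, 1206, 340 and 327 against 353 (0.87), with medulloblastomas 3 and 4 just below the cerebellum. A dimmer one was above it in every tumour (0.94). Scn2b is given in full, like Cacnb4, because its values were seen to oppose those of Scn3b. Scn4b, the subunit behind resurgent current in Purkinje cells, read 329, 180, 117 and 167 against 104 (0.68 ± 0.57). With the ken tumours alone the difference of Scn2b was 1.82 and within the hmk arrays 0.43; for Scn3b these were -1.58 and -1.51.

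Channel genes varied more among the tumours than other genes of like signal. The median SD among the 4 tumours was 0.63 for the members and 0.31 for all genes tested, while the median of the mean signals was 519 and 581. Of the 31 members, 25 had an SD above the median of all genes in the same range of signal, and 22 above the upper quartile. A wide spread was not particular to channel genes. The median SD was 0.96 for markers of Purkinje cells, 0.86 for mature granule neurons and 0.72 for inhibitory interneurons. Other marker lists were lower, with 0.35 for granule neuron precursors, 0.34 for astrocytes and Bergmann glia and 0.22 for microglia and macrophages. These lists were not matched for signal. Cacnb2 (1.35), Cacna1b (1.07), Cacna1g (1.0), Scn11a (0.98), Cacna2d3 (0.96) and Cacna1a (0.94) had the largest SDs, and Scn3b (0.15) the smallest. Medulloblastoma 1 was the highest tumour for 16 of 31 members, medulloblastoma 2 for 3, 3 for 5 and 4 for 7; over all genes these shares are 30.9%, 20.6%, 23.8% and 24.8%. Both ken tumours lay above both hmk tumours for 14 members (23.3% of all genes) and below them for 4, Scn3a, Cacna2d4, Cacng2 and Cacna1f (21.5%).

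**Figure D3:**
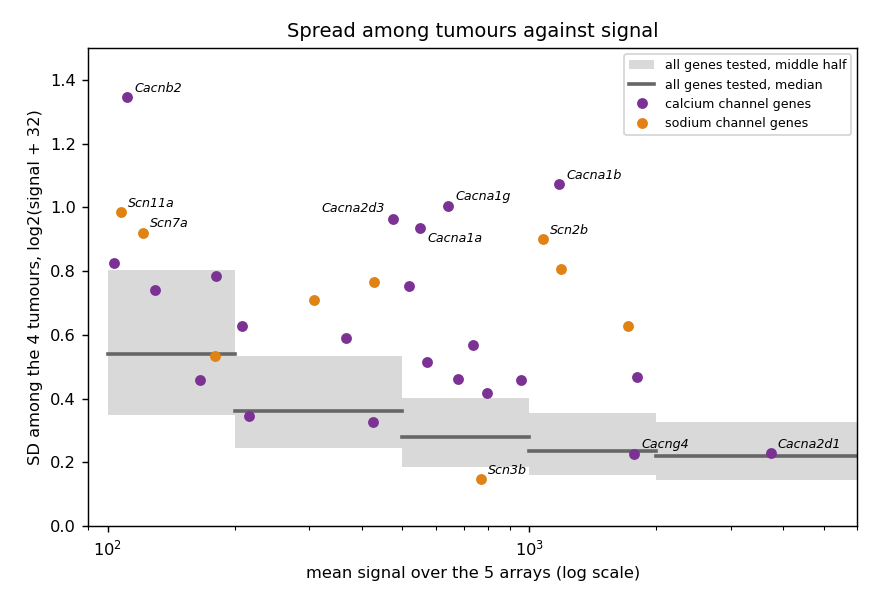
SD among the 4 tumours on the log2(signal + 32) scale against the mean signal over the 5 arrays (log axis), 1 point per channel gene, over the median and the quartiles of all genes tested in 5 ranges of signal. Of the 31 points, 22 lie above the grey band; Scn3b, Cacng4 and Cacna2d1 have SDs of 0.15, 0.23 and 0.23.

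Markers of mature neurons ran in the order of the median over all members, which not every channel class shared. The medians of the members were -0.10, -0.37, -0.71 and -0.45 in medulloblastomas 1 to 4, and those of the calcium channel pores -0.12, -0.71, -1.35 and -1.23. Other classes were ordered differently. Sodium channel pores had -0.32, 0.18, -0.26 and 0.07, and the Cacng family -0.19, -0.14, -0.71 and 0.01. The α2δ subunits had -0.85, -0.90, -1.20 and -0.66, and the calcium channel β subunits 0.10, -0.95, -0.89 and -1.93. Markers of Purkinje cells had medians of -0.47, -1.07, -2.45 and -1.94 over 6 genes, with summed signals of 6333 to 27828 in the tumours and 38891 in the cerebellum and 4 of 6 below it in every tumour. Markers of mature granule neurons had medians of 2.08, 1.01, -0.33 and 0.08 over 7 genes, with summed signals of 19197 to 46310 against 31521. Of these 7, 3 were above the cerebellum in every tumour and 2 below it. Markers of inhibitory interneurons had medians of -0.77, -1.34, -1.67 and -1.56 over 7 genes, with summed signals of 3385 to 11381 against 7294. Of these 7, 5 were below the cerebellum in every tumour and 1 above. The higher one, Pvalb, read 7201, 3387, 1884 and 3062 against 638, a large part of the tumour sums. Medulloblastoma 1, where these marker medians were highest, also had the highest actin and Gapdh end ratios. The part of these cell types in the channel results was not tested, and in bulk tissue fewer cells of a type and less RNA per cell cannot be told apart. Within the hmk arrays the median of the members was -0.61, and with the ken tumours against the same cerebellum -0.24.

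**Figure D4:**
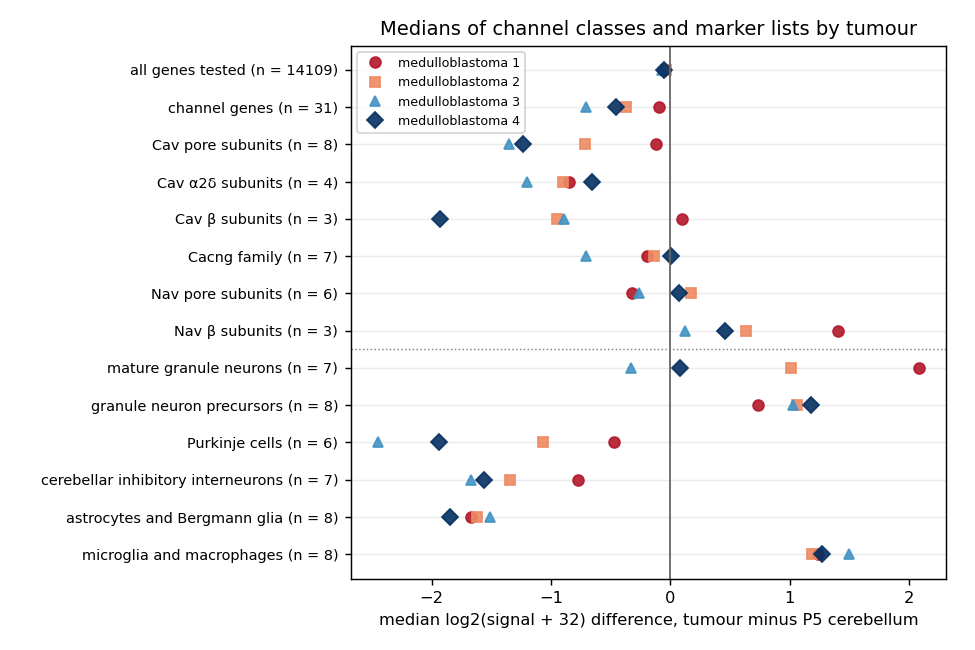
Median difference of each tumour from the P5 cerebellum on the log2(signal + 32) scale for all genes tested, the channel genes, their 6 classes and 6 lists of cell type markers (below the dotted line), 1 point per tumour. Medulloblastoma 1 has the highest median for calcium channel pores (-0.12), sodium channel β subunits (1.41), Purkinje cell markers (-0.47) and mature granule neuron markers (2.08). For sodium channel pores medulloblastoma 2 is highest (0.18), and for the α2δ subunits (-0.66) and the Cacng family (0.01) medulloblastoma 4.

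Genes that hold or regulate the channels were also mixed. Of 10 partners of sodium channels at the axon initial segment, limma called none, with 0 higher and 3 lower at an unadjusted p under 0.05, the adhesion genes Nfasc (-1.18 ± 0.45) and Nrcam (-0.65 ± 0.24) and the channel-binding factor Fgf11 (-1.44 ± 0.52), named after their values were seen. The scaffold gene Ank3, which anchors sodium channels, read 4613, 3784, 5169 and 4911 against 3899 (0.23 ± 0.24), and was also named after its values were seen. Of the 10 partners of calcium channels that passed the minimum signal none was called either, with 1 higher and 3 lower at an unadjusted p under 0.05. Named after their values were seen, the higher one was the SNARE gene Snap25 (1.20 ± 0.47), and the lower ones included the SNARE gene Stx1a (-1.14) and the adaptor gene Stac2 (-0.89). The active zone gene Erc2 was the only one at least 2-fold from the cerebellum in every tumour, at 326, 232, 295 and 317 against 899 (-1.53 ± 0.33, adjusted p = 0.109). The medians were -0.35 and -0.51, against -0.07 over all genes.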

How the data were processed

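RNA of 4 medulloblastomas and 1 P5 cerebellum had been hybridised to Affymetrix arrays. The deposited values are intensities on a linear scale, 1 per probe set, made with MAS5 per the submitters' processing notes; for medulloblastoma 3 no tool is stated. Without the 2% of probe sets at each end, the mean of every array was 500.002. Detection calls were not used. The number of arrays limits the precision.

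The tissue named in the labels set the group, and tumours were numbered in record order. The platform annotation gave 1 symbol for 34945 of 45101 probe sets; 932 with several were not used, 9160 were unnamed here and 64 were controls. Entrez gene IDs matched 34741 to RefSeq genes, and 0 symbols changed. The brightest probe set stood for each gene, and those with a mean signal of 100 or more were tested. log2(signal + 32) values were fitted with limma 3.58.1 in R 4.3.3 (lmFit, eBayes with a variance trend; 3 residual and 5.02 prior degrees of freedom), two-sided, adjusted by Benjamini-Hochberg over 14109 genes.

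All members are named, with all 5 values for members called, at least 2-fold from the cerebellum in every tumour or among the 6 largest SDs, and for Cacna1a, Cacna1g, Cacng2, Scn1a, Scn2a and Scn8a; others were added where their values were of interest. Members were set by gene symbol and not by their values, but members, lists and rules were all chosen with earlier results of these data known. The title prefix as a block was added after the data were seen. In 20 simulated tables of 14109 genes, 0% of genes changed by 1 (log2), 23.6% by 2, 53.6% by 3 and 69.3% by 4 were called. Lists of mature granule neuron, Purkinje cell, inhibitory interneuron, oligodendrocyte, endothelial, photoreceptor and sensory neuron markers were also measured.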

Additional observations from a re-analysis of the deposited data

Results flagged for a closer look

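For 3 of the 31 members, 1 tumour lay far from the other 3, as Dixon's ratio of its gap to the range of the 4 tumours (above its 95% critical value) shows. For normally distributed values, chance gives this in about 1 of 20 genes. The share over all genes tested was not computed, so whether 3 of 31 is unusual in these data is not known. In Scn11a medulloblastoma 1 stood low, with a ratio of 0.979 (12.6 against 139 to 144). In Cacng1 medulloblastoma 4 stood low, with a ratio of 0.914 (27.1 against 144 to 162). In Cacnb2 medulloblastoma 1 stood high, with a ratio of 0.867 (266 against 10.2 to 22.8). All 3 genes have mean signals between 103 and 111, near the minimum of 100.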

How the results depend on the processing

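Of the 31 members tested, 24 kept their direction in all of the up to 16 alternatives and 7 did not. Cacna2d1 ranged from 1.13 to 1.82 and Cacng4 from -2.11 to -1.78, both past the threshold in part of the alternatives. The number of members called higher (1) and lower (1) became 0 and 0 with the mean of all probe sets, without a variance trend and with the ken tumours (1 and 5, 2 and 5, and 3 and 6 at an unadjusted p under 0.05), 0 higher without a filter on low signals, 2 and 7 in the hmk arrays, and 3 lower with the prefix as a block, where Cacna2d2 and Scn3b joined Cacng4; with each tumour left out it ranged from 0 to 1 higher and 0 to 5 lower (2 to 3 and 4 to 10 unadjusted). Over all 14109 genes, calls were 837 higher and 841 lower in the hmk arrays and 179 and 182 with the block. They were 11 and 5 with the mean of all probe sets, 0 and 0 without a variance trend and 21 and 16 with the ken tumours. Without a filter on low signals they were 14 and 12 of 18193 genes. The cause was not tested, but the hmk and ken fits take their spread from 1 pair of tumours. No cerebellum has the ken prefix, so the differences with the block are those of the hmk arrays (median over the members -0.61 in both). Only the spread differs, so the block is not a separate estimate of the differences. At least 2-fold above the cerebellum in every tumour were 2 members under equal medians (Cacng2 joined), 4 with the ken tumours and 1 to 2 with each tumour left out. Over all genes these counts were 399, 429 and 320 to 525, against 284 with all arrays. At least 2-fold below were 9 members in the hmk arrays, 7 with the ken tumours and 4 to 6 with each tumour left out. Over all genes those counts were 1069, 622 and 439 to 651, against 371 with all arrays. The median over the members was -0.24 with the ken tumours. Equal medians moved the median of all genes from -0.07 to 0.12 and their calls from 44 higher and 25 lower to 78 and 20.

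Signs turned only for differences that were not called. Scn11a was 0.070 (quantile), 0.066 (equal medians), 0.019 (the larger added constant) and 0.41 (hmk arrays, and the same with the block), and -0.24 to 0.42 with each tumour left out. Scn7a was 0.070, 0.077, 0.011 and 0.32 in the same order, and -0.33 to 0.36. Scn2a was -0.11 in the hmk arrays and with the block and -0.10 to 0.49 with each tumour left out, and Scn1a was -0.18 in the hmk arrays and with the block. Scn8a was 0.024 under equal medians, 0.28 with the ken tumours and -0.45 to 0.036 with each tumour left out. Cacna1a was 0.15 with the ken tumours and Cacng8 -0.16 with the mean of all probe sets. Of 31 other probe sets of the members with a mean signal of at least 100, 29 had the sign of the brightest. No paired analysis was possible because the cerebellum has 1 array. Signals near 100 carry the least certain values.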

Other observations

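Other routes of calcium in the cell were measured beside the voltage-gated channels. Of 17 genes of release channels, pumps, exchangers and store-operated entry, limma called none, with 0 higher and 1 lower at an unadjusted p under 0.05, and their median was -0.20. That gene, Ryr3, an intracellular release channel, had signals of 125, 141, 67.3 and 140 in the tumours, in order, and 473 in the cerebellum (-1.78 ± 0.53, adjusted p = 0.200), at least 2-fold below the cerebellum in every tumour. The release channel gene Ryr1, named with its values known, lay above it in every tumour, at 225, 130, 174 and 124 against 54.3 (1.15 ± 0.55). Of 6 measured genes of related cation channels, 2 were above the cerebellum in every tumour, both at an unadjusted p under 0.05 and neither called, and both are named with their values known. The sodium leak channel gene Nalcn read 1223, 1624, 1671 and 1367 against 903 (0.67 ± 0.27), and the lysosomal channel gene Tpcn1 read 3118, 3077, 2554 and 2650 against 1710 (0.72 ± 0.23). Markers of the oligodendrocyte lineage had a median of 0.27 and those of endothelial cells and pericytes -1.38. For photoreceptors it was -0.62 over the 3 of 8 that passed the minimum signal, and for peripheral sensory neurons 0.24 over 4 of 8.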
